A study of Mus musculus with 20 samples.

Results

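The genes described here are 9 members of the matrix metalloproteinase and tissue inhibitor of metalloproteinases (TIMP) families: Mmp2, Mmp12, Mmp13, Mmp14, Mmp19, Mmp27, Timp1, Timp2 and Timp3. They were taken by gene symbol from the 32400 mouse genes of the deposited count table, and all 9 were among the 13667 genes with enough reads to be tested. They were chosen because of their levels in these same 20 libraries. Their levels and fold changes are therefore a description, and the statement that a gene passed the threshold means only that its adjusted p over all 13667 genes was under 0.05.

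The libraries hold poly(A) mRNA of whole liver from C57BL/6NTac mice. In the HFHF Flcn gRNA group (8 libraries) mice fed a diet rich in fat and fructose (HFHF, for high-fat, high-fructose) had received a guide RNA against Flcn, carried by the adeno-associated virus AAV8. The HFHF control group (7 libraries) had the same diet and a vehicle, PBS, and the chow control group (5 libraries) was untreated and ate standard chow. The nuclease that works with the guide, the guide sequence, the length of the diet, and the animals' age and sex are not given in the available sources. No group received a virus without the Flcn guide, so virus and guide cannot be told apart, and chow mice had no PBS, so diet and vehicle cannot be told apart. Whether every library came from its own animal is not stated in the labels. The p-values therefore set group differences against the spread between libraries, which may be partly technical.

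Matrix metalloproteinases are zinc-dependent proteases that cut collagens, elastin, basement membrane proteins and proteins shed from the cell surface. Most are made as inactive precursors that must be cleaved, and TIMPs block the active enzymes by binding them. In injured liver, stellate cells, which deposit scar collagen, and macrophages are known sources of both the proteases and their inhibitors. Flcn encodes folliculin, which acts with the Rag GTPases at the lysosome to restrain the transcription factors TFEB and TFE3.

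Total counts per library were 13974379 to 19586576 in the HFHF Flcn gRNA group, 15244760 to 18194089 in HFHF control and 14131976 to 16285324 in chow control. Flcn mRNA itself was at 17.8 ± 2.40 CPM (SD, n = 8) with the gRNA, 20.7 ± 2.98 CPM (n = 7) in HFHF control and 22.2 ± 6.03 CPM (n = 5) in chow. The gRNA group differed from HFHF control by -0.22 on the log2 scale (SE 0.12, edgeR adjusted p = 0.14), and since edited transcripts can persist, this level does not measure editing. Against chow it differed by -0.32 (SE 0.13, adjusted p of 0.05 after rounding, just past the threshold), a call lost without most single libraries, with -0.12 (adjusted p = 0.42) without chow replicate 1. CPM scale each gene's count to the library size after TMM adjustment. The summed CPM of 5 hepatocyte markers was 42700 to 74900 with the gRNA, 38800 to 57900 in HFHF control and 64400 to 85000 in chow, so hepatocyte mRNA was abundant in all 20 libraries of the liver label. In the title of gRNA replicate 8 the second number differs from that of all other titles, and whether it marks a batch is not given. In that library the 10 most abundant genes took 28% of counts. All 9 genes kept their call in both HFHF Flcn gRNA against HFHF control and HFHF control against chow without it.

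In HFHF Flcn gRNA against HFHF control, 7 of the 9 fell (Mmp2, Mmp12, Mmp13, Mmp14, Timp1, Timp2 and Timp3), 1 rose (Mmp27) and 1 did not pass (Mmp19). Over all tested genes 19% were lower and 19.6% higher, so that 50.7% of all calls were higher, or 37.8% with upper-quartile scaling. The median log2 fold change of the 9 was -0.92, against 0.01 over all genes. In HFHF control against chow control, 8 rose and 1 fell (Mmp19), where 28.1% of all tested genes were higher and 28.9% lower (49.4% of calls higher, or 60.7% with upper-quartile scaling), and the median was 2.08 against -0.01 over all genes. These comparisons share the HFHF control libraries, so a high or low value there moves both in opposite directions. Since the genes were chosen on these values, nothing is read from the counts.

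**Figure D1:**
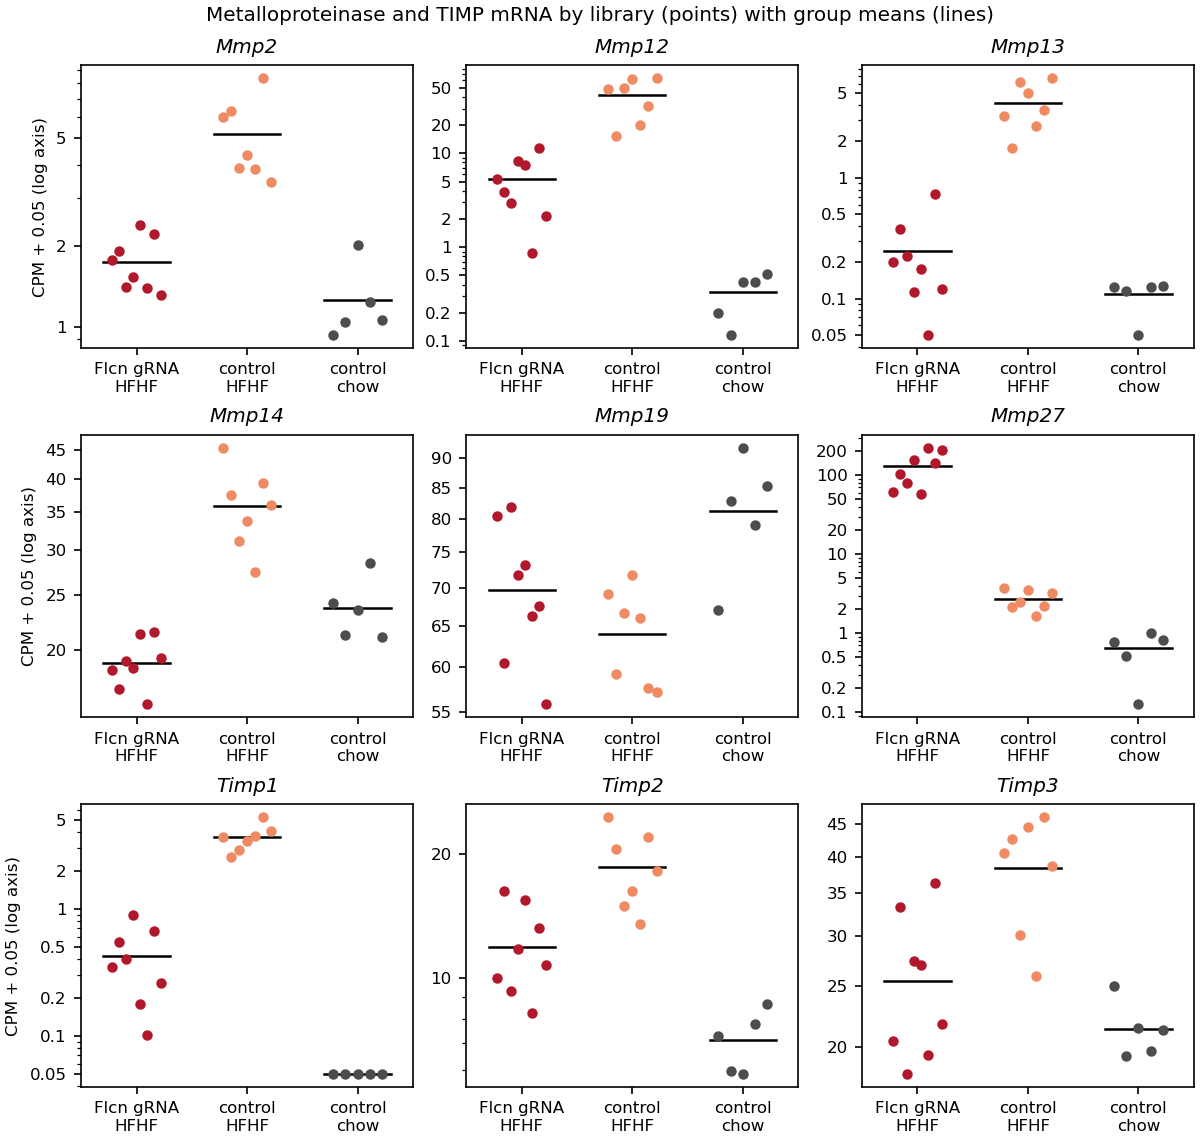
Level of each gene in each library, as CPM + 0.05 on a log axis, with HFHF Flcn gRNA libraries (n = 8), HFHF control (n = 7) and chow control (n = 5) from left to right; points are libraries and lines are group means. The gRNA libraries lie above all others for Mmp27 (58.0 to 223.7 CPM), and the Timp1 points of chow lie at the offset because all 5 libraries had 0 counts.

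Mmp27, a stromelysin-like metalloproteinase whose human protein has been described in macrophages of the endometrium, was the gene that rose with the gRNA. It had 60.6, 104.3, 80.7, 157.9, 58.0, 223.7, 141.1 and 209.6 CPM in gRNA replicates 1 to 8. HFHF control libraries had 1.62 to 3.65 CPM with a median of 2.43, and the chow libraries had 0.735, 0.465, 0.0757, 0.966 and 0.778 CPM. The 3 groups did not overlap, and the lowest gRNA library was far above the highest HFHF control library. The log2 fold change of gRNA over HFHF control was 5.61 (SE 0.36, 95% interval 4.84 to 6.37), which is 48.7-fold, and it ranked 7th among the 2673 genes that rose. Against chow the gRNA group was 213-fold higher (log2 7.73, SE 0.52), and HFHF control was 4.36-fold higher than chow (log2 2.12, SE 0.62), a call that was lost with limma-voom (2.33, adjusted p = 0.082). In counts, the gene had 17049 over the gRNA libraries, 344 over HFHF control and 41 over chow, so its chow level rests on few reads.

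Mmp27 lies on chromosome 9 (ENSMUSG00000070323, GRCm38 chromosome 9, 7571396 to 7581885, plus strand) in a cluster of 10 metalloproteinase genes that spans 427 kb and also holds Mmp13 (ENSMUSG00000050578, 7272514 to 7283331, plus strand) and Mmp12 (ENSMUSG00000049723, 7344381 to 7369499, plus strand). Only these 3 of the 10 had enough reads to be tested, and 4 (Mmp1a, Mmp1b, Mmp10 and Mmp20) had 0 counts in every library. Mmp8, the neutrophil collagenase gene, ends 2.9 kb before Mmp27 begins. Mmp8 was at 0.139 ± 0.0633 CPM with the gRNA, 0.456 ± 0.205 CPM in HFHF control and 0.0865 ± 0.0586 CPM in chow, too low to be tested. On the other side of Mmp27, Mmp20 had no counts and Mmp7 averaged 0.107 CPM with the gRNA, 0.402 CPM in HFHF control and 0 in chow. The high Mmp27 level thus stood beside neighbours at low or zero counts in the same gRNA libraries.

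**Figure D2:**
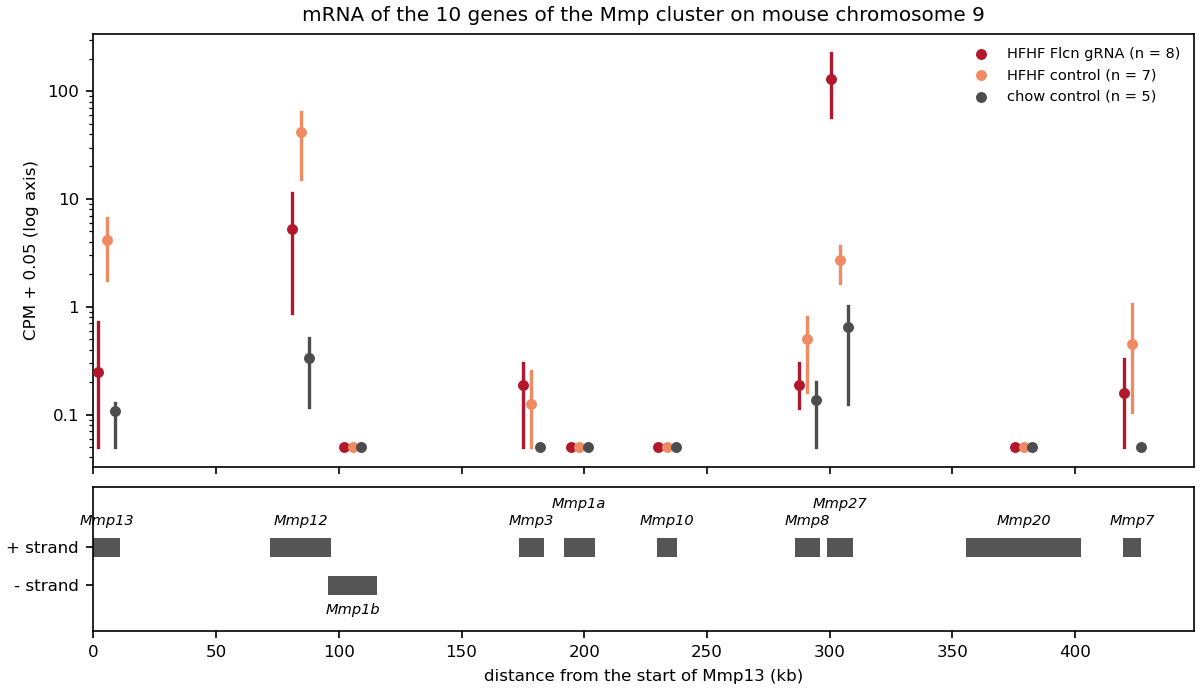
The upper panel gives CPM + 0.05 on a log axis for the 10 genes of the Mmp cluster, at their distance in kb from the start of Mmp13, with points for group means and lines from the lowest to the highest library in HFHF Flcn gRNA (n = 8), HFHF control (n = 7) and chow control (n = 5); the lower panel gives each gene's extent and strand. Mmp27 is highest in the gRNA group while Mmp12 and Mmp13 are highest in HFHF control.

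The start regions of the 3 measured genes of the cluster are shown because the genes share a locus and moved apart for gRNA over HFHF control. For HFHF control over chow all 3 rose. Each runs from 250 bases before to 50 bases after a transcription start in RefSeq (GRCm38.p6, plus strand), and capitals mark 2 motifs found by script, TGANTCA, the consensus of AP-1, and TATAAA, the TATA box. The windows are chr9:7571146-7571445 for Mmp27, chr9:7347124-7347423 for the second of the Mmp12 starts in RefSeq, and chr9:7272264-7272563 for Mmp13.
Mmp27: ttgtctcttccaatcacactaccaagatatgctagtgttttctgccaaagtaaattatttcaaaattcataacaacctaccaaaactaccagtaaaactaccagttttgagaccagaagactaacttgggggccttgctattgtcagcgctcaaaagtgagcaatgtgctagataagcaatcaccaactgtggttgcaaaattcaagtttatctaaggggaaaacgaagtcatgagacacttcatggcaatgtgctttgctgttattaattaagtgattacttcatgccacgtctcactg
Mmp12: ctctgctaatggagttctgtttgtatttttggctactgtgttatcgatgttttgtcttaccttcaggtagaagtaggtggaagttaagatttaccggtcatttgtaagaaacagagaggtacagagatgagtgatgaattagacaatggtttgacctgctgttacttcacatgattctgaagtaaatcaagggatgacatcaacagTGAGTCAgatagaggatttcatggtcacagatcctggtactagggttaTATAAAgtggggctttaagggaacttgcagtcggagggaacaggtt
Mmp13: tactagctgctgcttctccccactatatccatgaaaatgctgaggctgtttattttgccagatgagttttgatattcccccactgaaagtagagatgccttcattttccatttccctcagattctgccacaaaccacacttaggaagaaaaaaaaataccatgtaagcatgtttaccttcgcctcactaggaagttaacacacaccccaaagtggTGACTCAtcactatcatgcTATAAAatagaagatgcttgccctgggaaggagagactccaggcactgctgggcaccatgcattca

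The Mmp13 window held TGACTCA at positions -35 to -29 and TATAAA at -16 to -11, counted from the RefSeq start. The Mmp12 window held TGAGTCA at -44 to -38 and TATAAA at 5 to 10. This TATAAA lies after the RefSeq start, so it is not read as a working TATA box. The window of the other Mmp12 start held neither motif. The Mmp27 window held neither the AP-1 consensus nor the TATA box, and also neither the E-box CACGTG, which TFEB-type factors can bind, nor the PEA3/ETS core AGGAAG, on either strand. Of 32817 RefSeq promoter windows of this length, 7.81% held TGANTCA, 13.6% TATAAA, 7.15% CACGTG and 35.4% AGGAAG. No match overlapped another motif. Windows were found for 7 of the 9 genes, and none of these held the E-box. With the E-box in only 7.15% of all windows, its absence here, for Mmp27 too, is not read as a result. The ETS core occurred 3 times in the Timp1 window, 2 times in that of Mmp13, and 1 time each in those of Mmp14, Timp3 and the first Mmp12 start, while the Timp2 window held none of the 4 motifs. A match is a run of letters and not a site shown to be bound.

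Mmp12, the macrophage elastase, and Mmp13, the main interstitial collagenase of mice, were highest in HFHF control. Mmp12 had 0.827 to 11.35 CPM with the gRNA (median 4.56), 15.4 to 63.3 CPM in HFHF control (median 48.6), and 0.147, 0.0664, 0.378, 0.371 and 0.467 CPM in the chow libraries. No 2 of these groups overlapped. Its log2 fold change was -3.00 (SE 0.41) for gRNA over HFHF control, which is 7.99-fold lower, and 7.18 (SE 0.77) for HFHF control over chow, which is 145-fold higher. The gRNA group stayed above chow by 4.19 (SE 0.88, edgeR adjusted p = 0.00103), a call that was lost with limma-voom (3.87, adjusted p = 0.0661).

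Mmp13 had 0 to 0.679 CPM with the gRNA (median 0.138), 1.71 to 6.65 CPM in HFHF control (median 3.63), and 0.0735, 0.0664, 0, 0.0743 and 0.0778 CPM in chow, where the libraries held 4 counts in all. HFHF control stood apart from both other groups, which overlapped each other. Its log2 fold change of -4.32 (SE 0.41) for gRNA over HFHF control, 20-fold lower, ranked 3rd of the 2597 genes that fell. Mmp13 passed the read filter only through the HFHF control libraries, so this rank is no more than a description. HFHF control was 5.97 (SE 0.62) above chow, and the gRNA group differed from chow by 1.65 (SE 0.91, edgeR adjusted p = 0.153).

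Mmp2, gelatinase A, and Mmp14, the membrane-bound enzyme that activates the Mmp2 precursor together with Timp2, changed less. Mmp2 (ENSMUSG00000031740, GRCm38 chromosome 8, 92827291 to 92853420, plus strand) had 1.26 to 2.34 CPM with the gRNA (median 1.602), 3.40 to 8.32 CPM in HFHF control (median 4.29), and 0.883, 0.996, 1.97, 1.19 and 1.01 CPM in chow. Every HFHF control library was above every gRNA and every chow library. The log2 fold change was -1.59 (SE 0.20) for gRNA over HFHF control and 2.08 (SE 0.26) for HFHF control over chow. The gRNA group differed from chow by 0.49 (SE 0.27, edgeR adjusted p = 0.147), a value that was 0.75 and passed (adjusted p = 0.0367) without chow replicate 3, the highest chow library.

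Mmp14 (ENSMUSG00000000957, GRCm38 chromosome 14, 54431612 to 54445364, plus strand) had 16.02 to 21.5 CPM with the gRNA (median 18.9), 27.4 to 45.3 CPM in HFHF control (median 35.9), and 24.1, 21.2, 23.5, 28.4 and 21.01 CPM in chow. The gRNA and HFHF control libraries did not overlap, while 1 chow library lay within the HFHF control range. Its log2 fold change was -0.92 (SE 0.09) for gRNA over HFHF control and 0.59 (SE 0.11) for HFHF control over chow. The gRNA group was also below chow, by -0.32 (SE 0.10, edgeR adjusted p = 0.0144), but not past the threshold without chow replicate 4 (-0.23, adjusted p = 0.094).

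Mmp19 (ENSMUSG00000025355, GRCm38 chromosome 10, 128790910 to 128800824, plus strand), an enzyme with basement membrane proteins among its substrates, varied least between groups. It had 55.7 to 81.8 CPM with the gRNA (median 69.5), 57.2 to 71.7 CPM in HFHF control (median 65.9), and 67.0, 82.8, 91.9, 79.0 and 85.2 CPM in chow. The gRNA range spanned the whole range of HFHF control, and 1 chow library lay within the HFHF control range. The log2 fold change was 0.12 (SE 0.08, 95% interval -0.05 to 0.29, edgeR adjusted p = 0.248) for gRNA over HFHF control and -0.35 (SE 0.09) for HFHF control over chow. Against chow the gRNA value of -0.22 (SE 0.09) was just past the threshold (adjusted p = 0.0495) and missed it under all 7 other scalings, filters, models and tools.

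Timp1, an inhibitor widely used as a mark of liver scarring, was the inhibitor with the largest differences. Timp1 (ENSMUSG00000001131, GRCm38 chromosome X, 20870166 to 20874735, plus strand) had 0.0517 to 0.836 CPM with the gRNA (median 0.326), 2.501 to 5.23 CPM in HFHF control (median 3.65) and 0 counts in all 5 chow libraries. The 3 groups did not overlap, although the lowest gRNA library held 1 count against 0 in chow. It was 9.58-fold lower with the gRNA than in HFHF control (log2 -3.26, SE 0.32, 95% interval -3.93 to -2.60). Set against a floor of 3 counts over the chow group, 0.044 CPM, Timp1 was at least 8.49-fold higher with the gRNA and at least 82.3-fold higher in HFHF control than in chow.

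Timp2 (ENSMUSG00000017466, GRCm38 chromosome 11, 118301069 to 118355740, minus strand) had 8.22 to 16.3 CPM with the gRNA (median 11.2), 13.5 to 24.5 CPM in HFHF control (median 18.1), and 7.21, 5.91, 5.83, 7.72 and 8.64 CPM in chow. Ranges of the gRNA group overlapped those of both other groups, and HFHF control lay wholly above chow. The log2 fold change was -0.64 (SE 0.15) for gRNA over HFHF control, 1.39 (SE 0.18) for HFHF control over chow and 0.75 (SE 0.18, edgeR adjusted p = 0.00197) for gRNA over chow. Timp3, an inhibitor that stays bound to the matrix and also blocks ADAM17 and aggrecanases (ENSMUSG00000020044, GRCm38 chromosome 10, 86300372 to 86349506, plus strand), had 18.1 to 36.4 CPM with the gRNA (median 24.3), 25.8 to 46.2 CPM in HFHF control (median 40.5), and 24.9, 19.3, 21.4, 19.7 and 21.2 CPM in chow. Its log2 fold change was -0.59 (SE 0.15) for gRNA over HFHF control, 0.85 (SE 0.17) for HFHF control over chow and 0.25 (SE 0.17, adjusted p = 0.238) for gRNA over chow. Timp2 and Timp3 thus had smaller differences than Timp1 and gRNA libraries that overlapped HFHF control.

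**Figure D3:**
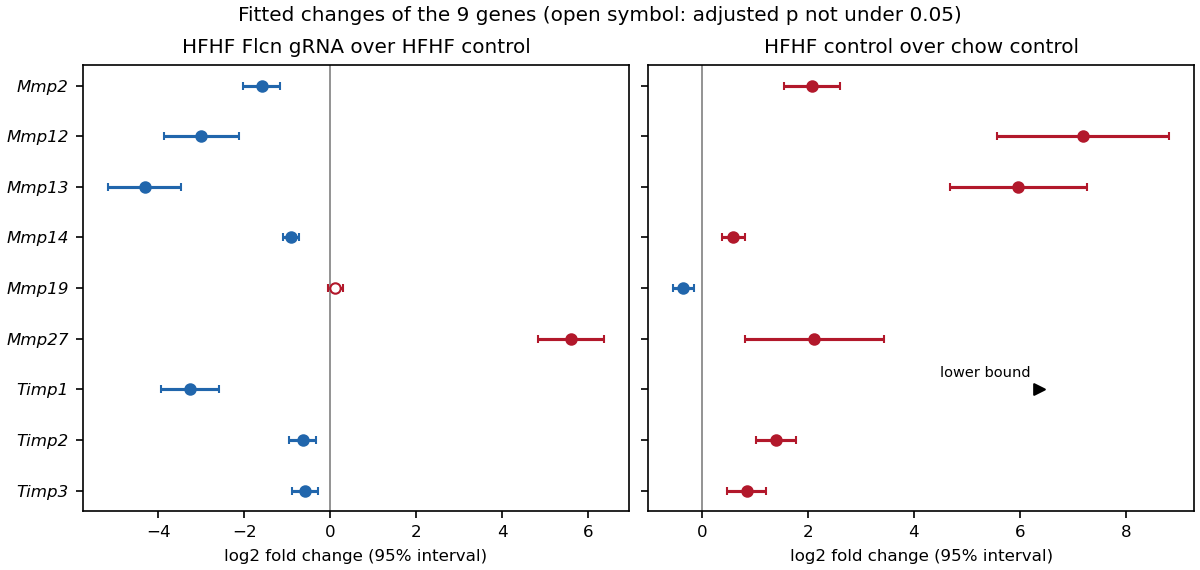
Log2 fold change with its 95% interval for HFHF Flcn gRNA over HFHF control (left) and HFHF control over chow control (right); filled symbols passed the threshold, the open symbol did not, and the triangle is the lower bound of Timp1 against chow. Of the 9 genes, Mmp27 lies right of 0 on both sides, at 5.61 and 2.12.

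Counted by overlap of libraries, 1 of the 9 genes lay wholly above HFHF control with the gRNA, 5 wholly below and 3 overlapped, where 5.04% of all tested genes lay wholly above and 6.01% wholly below. In HFHF control against chow 7 lay wholly above and 2 (Mmp14 and Mmp19) overlapped, with 18.8% of all tested genes wholly above and 18.1% wholly below. In HFHF Flcn gRNA against chow, 4 genes rose (Mmp12, Mmp27, Timp1 and Timp2), 2 fell (Mmp14 and Mmp19) and 3 did not pass (Mmp2, Mmp13 and Timp3), against 20.9% higher and 21.7% lower over all tested genes. There 3 genes (Mmp12, Mmp27 and Timp1) lay wholly above chow and 0 wholly below, against 9.01% and 8.98% of all tested genes. The place of Timp1 in both counts rests on few reads, 1 to 13 per gRNA library against 0 in chow. Timp1 and Mmp13 passed the read filter only through the HFHF control libraries, at 41 to 98 and 28 to 129 counts each. Mmp13 had 0 to 11 counts per library with the gRNA and 0 or 1 in chow. That route favours genes high in HFHF control, so nothing is read from how these genes stand to that group.

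Levels of different genes can be compared only per length, here as CPM per kb of the longest consensus coding transcript. With the gRNA, Mmp27 led at 77.9 ± 38.8 CPM per kb, ahead of Mmp19 at 20.5, Mmp14 at 7.29, Timp3 at 5.38, Timp2 at 3.19, Mmp12 at 1.46, Mmp2 at 0.55, Timp1 at 0.423 and Mmp13 at 0.0746. Only Mmp27 and Mmp19, and Mmp19 and Mmp14, were neighbours whose libraries did not overlap. In HFHF control the order was Mmp19 at 18.8, Mmp14 at 13.8, Mmp12 at 11.5, Timp3 at 8.11, Timp2 at 4.99, Timp1 at 4.1, Mmp2 at 1.66, Mmp27 at 1.59 and Mmp13 at 1.55, and only Timp1 and Mmp2 were neighbours without overlap. In chow it was Mmp19 at 23.9, Mmp14 at 9.11, Timp3 at 4.51, Timp2 at 1.9, Mmp2 at 0.393, Mmp27 at 0.363, Mmp12 at 0.0793, Mmp13 at 0.0218 and Timp1 at 0, and the neighbours from Mmp19 down to Mmp2 did not overlap. With the length of all exons in place of the transcript, the order was the same in the gRNA and chow groups and changed among close neighbours in HFHF control.

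Summed per kb, Mmp27 made up 68.7 ± 12.7% of the 6 metalloproteinase levels with the gRNA, 3.2 ± 0.497% in HFHF control and 1.09 ± 0.621% in chow. The other 5 metalloproteinases together were at 29.8 ± 3.44 CPM per kb with the gRNA, 47.3 ± 7.06 in HFHF control and 33.5 ± 2.74 in chow. The 3 TIMPs together were at 9 ± 2.26 CPM per kb with the gRNA, 17.2 ± 2.96 in HFHF control and 6.42 ± 0.608 in chow. The TIMP sum of every gRNA library (6.38 to 12) was below that of every HFHF control library (13.3 to 21.6). These are mRNA levels, and neither protein nor protease activity was measured.

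**Figure D4:**
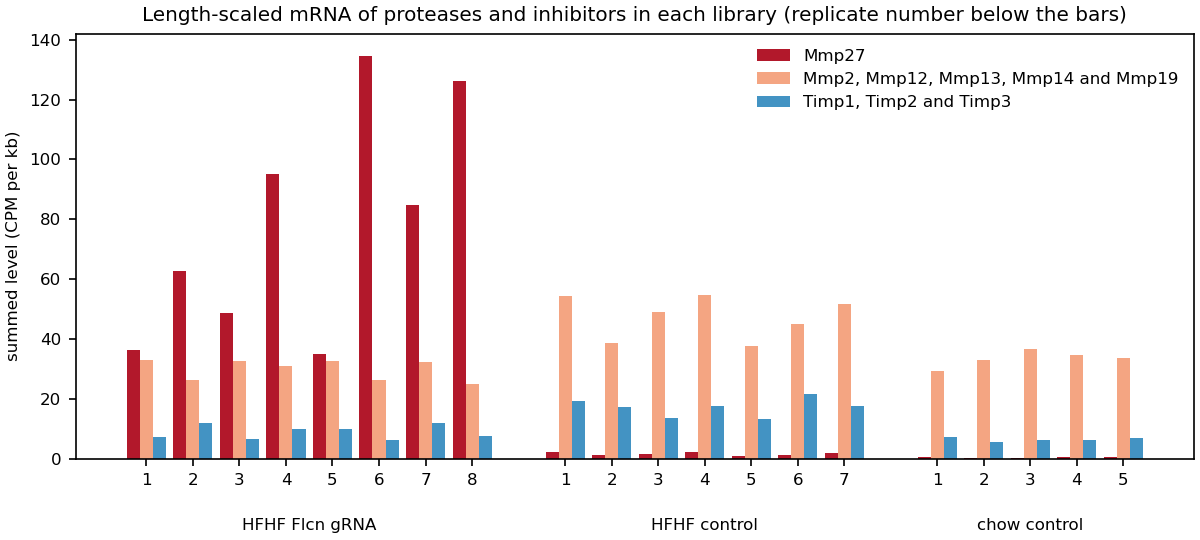
Summed levels in CPM per kb in each library for Mmp27, the other 5 metalloproteinases and the 3 TIMPs, with HFHF Flcn gRNA libraries at the left, HFHF control in the middle and chow control at the right. Mmp27 bars run from 34.9 to 135 in the gRNA libraries and do not pass 2.19 in the HFHF control libraries.

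Of 18 further Mmp and Timp genes, 5 had enough reads to be tested, and of these Mmp23 fell with the gRNA while the other 4 did not pass, a count of 1 in 5 where 19% of all tested genes were lower. Mmp23, a membrane-anchored metalloproteinase, had 0.620 ± 0.160 CPM with the gRNA, 1.77 ± 0.346 CPM in HFHF control and 0.464 ± 0.140 CPM in chow. Its log2 fold change was -1.49 (SE 0.19, edgeR adjusted p = 2.93e-06) for gRNA over HFHF control and 1.90 (SE 0.24, adjusted p = 7.97e-07) for HFHF control over chow, and the gRNA libraries lay wholly below HFHF control. With the gRNA the values of the others were -0.18 for Mmp15 (adjusted p = 0.219), -0.78 for Mmp17 (0.0524), -0.52 for Mmp9 (0.164) and -0.74 for Mmp11 (0.113). With the diet Mmp15 (0.35, adjusted p = 0.0272) and Mmp17 (1.50, adjusted p = 0.00335) also rose, while Mmp9 (0.43, adjusted p = 0.295) and Mmp11 (0.19, adjusted p = 0.711) did not pass. Timp4 had 1 count in 1 HFHF control library and 0 in all others.

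Most of the listed matrix genes, some encoding metalloproteinase substrates, had less mRNA with the gRNA and more with the diet. This list and those that follow were chosen with earlier results of these data known, so their counts are a description. Of 20 collagen and other matrix genes, 19 fell with the gRNA and 1 (Fn1, fibronectin) did not pass, with a median log2 fold change of -1.66, where 19% of all tested genes were lower and their median was 0.01. With the diet 19 rose and Fn1 fell, with a median of 2.11, where 28.1% of all tested genes were higher and their median was -0.01. Fn1, the most abundant of the 20, was at 1210 CPM with the gRNA, 1070 CPM in HFHF control and 1530 CPM in chow. Col1a2, a chain of type I collagen, was at 14.8 CPM with the gRNA and 81.4 CPM in HFHF control (log2 -2.46, SE 0.19, edgeR adjusted p = 2.02e-08). Col5a1 (-1.31, adjusted p = 5.33e-09) and Col6a1 (-1.77, adjusted p = 9.59e-09) also fell, and with the diet Col6a1 rose by 2.57 (adjusted p = 3.54e-10) and Dcn, decorin, by 1.43 (adjusted p = 4.13e-10).

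The related ADAM and ADAMTS genes encode proteases, some of which Timp3 inhibits, and were listed with Adamtsl2, which encodes an ADAMTS-like protein with no protease domain. Of these 19 genes 16 were lower (Adamtsl2 among them, at -1.77) and 3 not passed with the gRNA, where 19% of all tested genes were lower. With the diet 16 were higher, 2 lower and 1 not passed, where 28.1% of all tested genes were higher. Adamts2, which trims procollagen, was at 3.87 CPM with the gRNA and 11.3 CPM in HFHF control (log2 -1.55, SE 0.16, edgeR adjusted p = 1.88e-07) and rose with the diet (1.98, adjusted p = 3.38e-08). Adamts12 fell by 2.60 (adjusted p = 2.19e-07) and Adamts9 fell by 1.2 (adjusted p = 3.56e-06) with the gRNA, and Adamts12 rose by 3.69 with the diet (adjusted p = 4.43e-08).

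Genes that activate metalloproteinases or inhibit proteases in other ways moved in both directions: of 16 tested, 4 rose, 6 fell and 6 did not pass with the gRNA, where 19.6% of all tested genes were higher and 19% lower. With the diet 6 rose, 7 fell and 3 did not pass, where 28.1% were higher and 28.9% lower. Plat, tissue plasminogen activator, was at 0.498 CPM with the gRNA, 4.01 CPM in HFHF control and 0.194 CPM in chow (log2 -2.97, edgeR adjusted p = 6.02e-08, for gRNA over HFHF control, and 4.34, adjusted p = 1.15e-08, for HFHF control over chow). Plg, plasminogen, the precursor of plasmin made by hepatocytes, moved the other way, at 0.43 (adjusted p = 0.000223) for gRNA over HFHF control and -0.98 (adjusted p = 1.14e-08) for HFHF control over chow. Cd44, a hyaluronan receptor that can hold metalloproteinases at the cell surface, fell with the gRNA (-1.06, adjusted p = 2.65e-05).

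Of 8 tested genes of collagen uptake and cathepsins, 2 rose, 4 fell and 2 did not pass with the gRNA, where 19.6% of all tested genes were higher and 19% lower, and 7 rose and 1 did not pass with the diet, where 28.1% of all tested genes were higher. Mrc2, a receptor that takes up collagen fragments, fell with the gRNA (log2 -1.93, SE 0.25, edgeR adjusted p = 3.8e-06), as did Ctss, the macrophage cathepsin S (-1.15, adjusted p = 7.86e-05). Ctsl, the lysosomal cathepsin L, rose (0.61, adjusted p = 6.01e-05), at 835 CPM with the gRNA and 545 CPM in HFHF control. With the diet Mfge8, a bridging protein in uptake, rose by 1.91 (adjusted p = 4.09e-08) and Ctsd, cathepsin D, by 0.79 (adjusted p = 5.37e-08).

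Among 23 tested genes of cytokines, their receptors and transcription factors (AP-1, ETS, Runx, NF-kB and Egr1), many of them known regulators of metalloproteinase transcription, 15 fell and 8 did not pass with the gRNA, where 19% of all tested genes were lower. With the diet 13 rose, 6 fell and 4 did not pass, where 28.1% of all tested genes were higher and 28.9% lower. Csf1, the macrophage growth factor, fell with the gRNA (log2 -0.94, SE 0.10, edgeR adjusted p = 4.35e-07), as did Spp1, osteopontin (-1.98, adjusted p = 1.16e-05), and Tgfb2 (-1.60, adjusted p = 4.88e-05). With the diet Ets2 (0.91, adjusted p = 4.53e-07) and Spp1 (2.99, adjusted p = 5.36e-07) rose. The 6 tested genes of the AP-1 family, named after their values were seen, were split in HFHF control over chow: Fos (-3.57), Fosb (-3.79), Jun (-1.41) and Junb (-1.36) fell, and Fosl2 (0.65) and Jund (0.30) rose. For gRNA over HFHF control Fosl2 (-0.62) and Jund (-0.56) fell, and Fos (0.34), Fosb (-0.29), Jun (0.17) and Junb (0.36) did not pass. Fosl1, too low to be tested, averaged 0.00792 CPM with the gRNA, 0.326 CPM in HFHF control and 0.0147 CPM in chow.

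**Figure D5:**
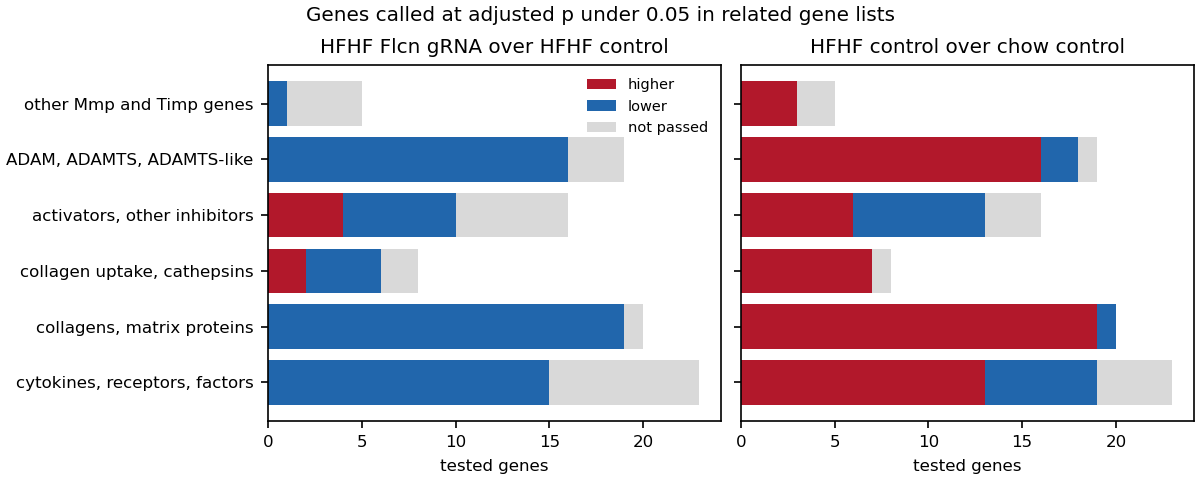
Number of tested genes that were higher, lower or not past the threshold in 6 related gene lists, for HFHF Flcn gRNA over HFHF control (left) and HFHF control over chow control (right). Of the 20 collagen and matrix genes, 19 are lower on the left and 19 higher on the right.

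In whole liver, fewer cells of a type and less RNA per cell cannot be told apart, and markers of several cell types fell with the gRNA as 7 of the 9 genes did, while Mmp27 rose and Mmp19 did not pass. Over all tested genes 19% were lower and 19.6% higher with the gRNA. With the diet 28.1% were higher and 28.9% lower. Of 9 macrophage markers, for cells derived from monocytes and lipid-associated ones, 7 fell and 2 did not pass with the gRNA and all 9 rose with the diet. Their summed level was 126 to 313 CPM with the gRNA, 200 to 492 CPM in HFHF control and 39.2 to 92.2 CPM in chow. In both HFHF groups most of this sum came from 2 markers, named here because of their levels. Lpl averaged 111 CPM with the gRNA and 221 CPM in HFHF control. Gpnmb averaged 72.3 CPM with the gRNA and 46.1 CPM in HFHF control, and did not pass (log2 0.65). The sum therefore says little about the other markers. Of 10 stellate cell markers, 7 fell and 3 did not pass with the gRNA and 9 rose with the diet, with sums of 186 to 265 CPM with the gRNA, 244 to 299 CPM in HFHF control and 149 to 196 CPM in chow. The 3 that did not pass, Lrat, Reln and Ecm1, made up most of these sums. They averaged 30.9, 55.8 and 68.1 CPM with the gRNA and 41.2, 65.9 and 66.2 CPM in HFHF control. These sums therefore say little about the 7 markers that fell. All 4 tested of 6 portal fibroblast markers fell with the gRNA and rose with the diet, with sums of 4.12 to 5.21 CPM with the gRNA, 8.33 to 15.5 CPM in HFHF control and 2.88 to 3.27 CPM in chow. Of 4 tested of 6 neutrophil markers, 3 fell with the gRNA and 3 rose with the diet, with sums of 6.3 to 11.2 CPM with the gRNA, 10.3 to 14.6 CPM in HFHF control and 4.18 to 6.54 CPM in chow, and Ly6g was at 0 in chow.

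Of the 7 markers of Kupffer cells, the resident macrophages, 4 rose, 1 fell and 2 did not pass with the gRNA, and 2 rose, 3 fell and 2 did not pass with the diet, with sums of 152 to 342 CPM with the gRNA, 139 to 340 CPM in HFHF control and 99.3 to 192 CPM in chow. Most of these sums came from Cd5l and Clec4f, at 114 and 63.3 CPM with the gRNA and 153 and 39.9 CPM in HFHF control. Among the 7 markers Cd163 was at 6.79 CPM with the gRNA, 0.754 CPM in HFHF control and 17 CPM in chow. Timd4 was at 5.08 CPM with the gRNA, 1.05 CPM in HFHF control and 5.43 CPM in chow. Both fell with the diet, while Cd5l (log2 1.64) and Adgre1 (0.91) rose with it, named here after their values were seen. Sinusoidal endothelial sums were 126 to 212 CPM with the gRNA, 116 to 171 CPM in HFHF control and 124 to 154 CPM in chow, with 2 of 6 markers higher and 4 not passed with the gRNA, and 1 higher, 2 lower and 3 not passed with the diet. All 3 tested of 5 cholangiocyte markers fell with the gRNA, and 2 rose and 1 did not pass with the diet, with sums of 6.46 to 9.97 CPM with the gRNA, 8.04 to 21 CPM in HFHF control and 5.22 to 12 CPM in chow. Of 8 lymphocyte markers 4 rose and 4 fell with the gRNA, and 4 rose, 1 fell and 3 did not pass with the diet, with sums of 7.46 to 17.3 CPM with the gRNA, 7.52 to 16.3 CPM in HFHF control and 5.5 to 7.11 CPM in chow. Of 5 hepatocyte markers 2 rose and 3 did not pass with the gRNA, and 4 fell and 1 did not pass with the diet. These counts stand beside shares over all tested genes of 19.6% higher and 19% lower with the gRNA. With the diet the shares were 28.1% higher and 28.9% lower. In lists this short, counts such as 2 of 5 or 2 of 6 are not read as a result. No marker other than Ly6g was at 0 throughout a group, and the part of cell numbers in the levels of the 9 genes was not tested.

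Genes with the most similar levels were sought for each of the 9 by Pearson's r of log2 CPM over the 20 libraries, which lie in 3 groups, so any gene with the same group differences scores high. The nearest were Mrc2 (0.963) and the collagen-binding Lum (0.961) for Mmp2, Ptafr (0.963) and S100a4 (0.962) for Mmp12, and Slamf8 (0.979) and Cd74 (0.961) for Mmp13. For Mmp14 they were Emp2 (0.934) and Alcam (0.926), and for Mmp19 Pdlim5 (0.884) and Erc1 (0.878). Mmp27 was nearest to Renbp (0.985), Mogat2 (0.977) and St6galnac2 (0.974). Timp1 was nearest to the collagen genes Col1a1 (0.981), Col1a2 (0.979) and Col3a1 (0.979), Timp2 to Oxct1 (0.961) and Sirpa (0.954), and Timp3 to Usp43 (0.909) and Alpk1 (0.904).

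Since the use of strand in counting is not given, reads of overlapping genes could be shared. Timp1 lies inside Syn1 on the opposite strand, and Syn1 was at 0.398 ± 0.173 CPM with the gRNA, 0.827 ± 0.402 CPM in HFHF control and 0.195 ± 0.168 CPM in chow, lower with the gRNA (log2 -1.06, edgeR adjusted p = 0.0203) and higher with the diet (2.07, adjusted p = 0.000852). In chow the Syn1 libraries held 13 counts while Timp1 held 0. Timp3 overlaps Syn3, at 0.921 CPM with the gRNA, 1.18 CPM in HFHF control and 0.813 CPM in chow. Mmp19 overlaps Tmem198b, at 3.11 CPM with the gRNA, 3.38 CPM in HFHF control and 3.56 CPM in chow. Neither Syn3 nor Tmem198b passed in any of the 3 comparisons. Mmp1b, which overlaps Mmp12, had 0 counts, Cep295nl, which overlaps Timp2, averaged 0.0312 CPM with the gRNA, 0.0648 CPM in HFHF control and 0.0156 CPM in chow, and no annotated gene overlaps Mmp2, Mmp13, Mmp14 or Mmp27.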

How the data were processed

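Whole-liver poly(A) mRNA was sequenced in 20 libraries (KAPA mRNA HyperPrep, adapters with molecular identifiers, single-end reads, per the labels' protocols). The table deposited by the authors holds expected counts, estimated per gene and not normalized, of which 77.8% were whole. The build was GRCm38, per the submitters' processing notes. The aligner, the counter and the use of strand and identifiers are not given in the available sources. Of 32422 rows, 22 constructs (2.2e-06% of counts) were left out, and 1 column matched no sample and was not used. Symbols came from GENCODE M21, which named 32325 of 32400 genes. Each of 59 within-group library pairs differed beyond counting noise (chi-square at least 12.3 per degree of freedom).

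Expected counts were rounded. Genes were kept with filterByExpr on the 3 groups, scaled with TMM factors, and fitted with edgeR 4.0.16 in R 4.3.3 (robust glmQLFit, glmQLFTest, 17 residual degrees of freedom). Adjusted p-values are Benjamini-Hochberg values over 13667 genes, with a threshold of 0.05. A group at 0 was given a floor of 3 counts over the group. Alternatives were DESeq2 1.42.0 size factors and Wald test, upper-quartile scaling, no filter, at least 1 CPM in 5 libraries, limma 3.58.1 voom, only the 2 groups compared, and each library left out. Figures were drawn with matplotlib 3.10.9.

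The 9 genes and the gene lists were chosen with earlier results of these data known. Named were all 9 genes, every tested Mmp or Timp gene, the 3 smallest p with the gRNA and 2 with the diet in each further list, up to 2 markers of a cell type, and neighbouring, overlapping and most similar genes (the first 2 or 3 of 3).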

Additional observations from a re-analysis of the deposited data

Results flagged for a closer look

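Of 26 gene and group combinations examined, 2 held a library far from the others of its group, where chance gives about 1 in 20. Mmp2 was at 1.967 CPM in chow replicate 3, with the next chow library at 1.19 CPM, a gap of 0.718 of the group's range. Mmp13 was at 0 CPM in chow replicate 3, with the nearest chow library at 0.0664 CPM, a gap of 0.853 of the range, where each chow library held 0 or 1 counts.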

How the results depend on the processing

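The number of the 9 genes past the threshold was 8 for HFHF Flcn gRNA against HFHF control and 9 for HFHF control against chow without each library in turn, and 4 to 6 for HFHF Flcn gRNA against chow. Without each library, 4632 to 5330, 7204 to 7867 and 5152 to 5921 of all genes passed in these comparisons. None of the fold changes of the 9 genes changed sign where it had passed. Of their alternative values, 700 kept direction and call, 26 lost the call and 1 gained it. Lost calls were those of Mmp19 for gRNA against chow (-0.15 to -0.23), Mmp14 without chow replicate 4, Mmp12 with limma-voom, and Mmp27 for HFHF control against chow with limma-voom (2.33, adjusted p = 0.082). Mmp2 gained it without chow replicate 3. For Flcn each library was left out by a choice made after seeing the data, which gave -0.28 to -0.16 for gRNA against HFHF control, never past the threshold, and -0.38 to -0.12 for gRNA against chow, past it only without gRNA replicate 8, HFHF control replicate 7 or chow replicate 5. Upper-quartile scaling moved the share of higher calls to 37.8%, against 50.7% with TMM, for gRNA against HFHF control and 60.7%, against 49.4% with TMM, for HFHF control against chow. No paired analysis was possible because the replicate numbers were given in accession order. Chow levels of Mmp12, Mmp13, Mmp27 and Timp1 rest on few counts and limit those folds.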

Other observations

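Within the gRNA group the libraries differed in more than 1 of the 9 genes at once. Replicate 6 had the lowest levels of Mmp12 (0.827 CPM), Mmp13 (0 CPM), Mmp14 (16.02 CPM), Timp1 (0.0517 CPM) and Timp2 (8.22 CPM). Replicate 7 had the highest Mmp12 (11.35 CPM), Mmp13 (0.679 CPM), Mmp14 (21.5 CPM) and Timp3 (36.4 CPM). Replicates 6 and 8, highest in Mmp27 at 223.7 and 209.6 CPM, had the lowest shares of counts from the albumin gene Alb, 3.12% and 2.81%. These libraries were picked after their values were seen, and no test was made.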
